A study of Mus musculus with 4 samples.

Results

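The potassium, TRP and Piezo channel genes were described in blood endothelial cells (BECs) from mouse ear dermis. The members are all protein-coding genes whose symbol starts with *Kcn*, *Trpc*, *Trpm*, *Trpv* or *Piezo*, together with *Pkd2*. The potassium channel gene *Kcnj8* was left out, because its level served to choose wells. The rule gave 119 of the 21547 protein-coding genes and of the 46517 gene identifiers counted in all. They comprise 40 pore-forming voltage-gated (Kv) genes, 13 genes named as Kv accessory subunits or binding proteins, 14 inward rectifiers and 14 two-pore domain channels. The others are 12 calcium- or sodium-activated channels or their subunits, 9 *Trpc*, 8 *Trpm* and 6 *Trpv* genes, *Piezo1*, *Piezo2* and *Pkd2*. Some members are no channels, such as *Trpc4ap*, which encodes a protein associated with TRPC4.

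Ears of adult wild-type female C57Bl/6 mice (C57BL/6 J in the study's methods) were dissociated with enzymes. The labels give an age of 12 to 26 weeks, and the methods a younger range. Single CD31+/CD45-/Lyve1- cells were sorted into 384-well plates for Smart-seq2, in which reads of each well are counted without molecular identifiers. Replicates 1 and 2 consist of a plate A and a plate B each, and no treatment or genotype was compared. Pools of 6 mice are named in the sources, and whether each replicate is a pool of its own was not settled, so that the spread between replicates may be technical.

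A potassium channel lets potassium leave a resting endothelial cell, which holds its membrane potential negative and increases the driving force for calcium entry. TRP channels are cation channels that answer to lipids, heat, swelling and emptied calcium stores, and Piezo channels open when the membrane is stretched. In small arteries, calcium entry through TRPV4 is known to open the calcium-activated channels encoded by *Kcnn3* and *Kcnn4*, and the resulting hyperpolarization relaxes the smooth muscle. In pericytes and smooth muscle cells, *Kcnj8* with the sulphonylurea receptor gene *Abcc9* forms an ATP-sensitive potassium channel, and TRPC6 admits cations after receptor activation.

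The plates differed in depth and in the purity of their wells. Reads on genes summed to between 31864976 and 74739095 per plate, and the median well had 182926 and 142086.5 reads on the plates of replicate 1 and 42539.5 and 40324 on those of replicate 2. Wells were called endothelial when 2 or more of the genes *Pecam1*, *Kdr* and *Cdh5* had a read and when *Kcnj8*, *Pdgfrb*, *Ptprc*, *Prox1* and *Lyve1* were each below 100 CPM, where CPM are the reads of a gene per 1000000 reads of its well. This left 338 wells of replicate 1 and 363 of replicate 2. Mural-mixed wells had at least 100 CPM of *Pecam1* and at least 100 CPM of *Pdgfrb* or *Kcnj8*, genes of pericytes and smooth muscle cells. There were 398 such wells in replicate 1, with a median of 183604 reads, and 34 in replicate 2, with a median of 10247, so the values of replicate 2 rest on few and shallow wells. A cluster of 152 endothelial wells, 110 of them in replicate 2, had a median of 38139.5 reads. It had 11 mural, 7 lymphatic and 7 fibroblast markers higher than the other wells, and also 4 leukocyte, 4 keratinocyte, 4 skeletal muscle and 3 Schwann markers. Its wells were kept, and results that change without it are given with both values.

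Promoters of 5 members are shown, because these genes represent the patterns described: *Piezo1*, *Trpv4* and *Trpm7* were among the highest members in endothelial wells, and *Kcne4* and *Trpc6* were higher in wells with mural genes. The sequences come from RefSeq (GRCm38.p6) and run 5′ to 3′ on the strand of the gene, from 250 bases before its start to 50 after it. Capitals mark the letters CACGTG, the letters TATAAA and the CArG box, the 10-letter site of serum response factor, each searched on both strands without overlap with another in these windows.
Piezo1, chr8:122551280-122551579, minus strand: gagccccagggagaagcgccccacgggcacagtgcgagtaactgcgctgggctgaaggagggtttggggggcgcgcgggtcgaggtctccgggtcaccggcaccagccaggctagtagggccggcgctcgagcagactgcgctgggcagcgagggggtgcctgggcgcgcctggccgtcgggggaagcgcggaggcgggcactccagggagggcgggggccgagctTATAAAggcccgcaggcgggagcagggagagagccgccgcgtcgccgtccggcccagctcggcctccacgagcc
Trpv4, chr5:114658372-114658671, minus strand: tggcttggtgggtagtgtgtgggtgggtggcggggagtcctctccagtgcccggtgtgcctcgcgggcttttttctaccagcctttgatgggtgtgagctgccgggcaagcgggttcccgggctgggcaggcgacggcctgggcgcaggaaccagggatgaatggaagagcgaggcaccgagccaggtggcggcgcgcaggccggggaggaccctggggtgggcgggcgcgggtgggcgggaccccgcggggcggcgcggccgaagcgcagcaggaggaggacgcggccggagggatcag
Trpm7, chr2:126876212-126876511, minus strand: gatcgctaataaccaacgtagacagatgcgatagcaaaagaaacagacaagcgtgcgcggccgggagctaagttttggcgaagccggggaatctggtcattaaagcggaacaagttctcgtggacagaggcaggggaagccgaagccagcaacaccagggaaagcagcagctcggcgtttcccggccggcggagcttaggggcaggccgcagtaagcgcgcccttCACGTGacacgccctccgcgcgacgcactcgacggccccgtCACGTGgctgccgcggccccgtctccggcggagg
Kcne4, chr1:78816661-78816960, plus strand: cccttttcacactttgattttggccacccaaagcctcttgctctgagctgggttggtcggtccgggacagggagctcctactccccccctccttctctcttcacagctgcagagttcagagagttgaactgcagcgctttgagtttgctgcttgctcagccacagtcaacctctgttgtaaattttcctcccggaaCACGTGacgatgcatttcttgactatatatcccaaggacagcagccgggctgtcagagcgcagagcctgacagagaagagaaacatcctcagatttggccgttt
Trpc6, chr9:8543892-8544191, plus strand: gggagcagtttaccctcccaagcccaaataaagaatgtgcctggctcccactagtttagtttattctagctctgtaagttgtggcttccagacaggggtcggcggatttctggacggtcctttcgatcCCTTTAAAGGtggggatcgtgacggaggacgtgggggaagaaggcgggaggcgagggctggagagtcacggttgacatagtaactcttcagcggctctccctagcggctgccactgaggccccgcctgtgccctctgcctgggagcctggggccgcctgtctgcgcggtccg

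A promoter was found for 91 of the 119 members, 120 promoters in all. A CArG box was present in 2 of these 120 promoters (1.67%), those of *Trpc6* and *Trpv1*, and in 1.63% of all 32851 promoters in the table. CACGTG occurred in 8.33% of the promoters of members, with 2 copies in that of *Trpm7* and 1 in that of *Kcne4*, against 7.15% of all promoters. TATAAA occurred in 9.17% against 13.6%, and *Piezo1* carried 1 copy. The GC content was 75% for *Piezo1* and 73% for *Trpv4*, and 52.7% for *Kcne4*.

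Endothelial wells expressed few of the channel genes. A level of at least 10 CPM, as the mean over wells, was reached in both replicates by 9 of 119 members (7.56%) and by 38.4% of protein-coding genes. They were *Piezo1*, *Trpm7*, *Trpc4ap*, *Pkd2*, *Trpv4*, *Kcnq1*, *Trpm4*, *Kcnk6* and *Kcnc2*. A further 10 members reached 10 CPM in 1 replicate, namely *Kcna5*, *Trpm3* and *Trpv2* in replicate 1 and *Kcnd1*, *Kcne3*, *Kcnj15*, *Kcnk5*, *Kcnn3*, *Kcnn4* and *Trpm6* in replicate 2. Another 75 had reads but stayed below it, and 25 had no read in any endothelial well. The median member had 0.37 CPM, against 4.44 CPM for the median protein-coding gene. Of the 9 genes, 5 belong to the TRP, Piezo and polycystin families as channels, 3 encode potassium channels and 1, *Trpc4ap*, encodes no channel.

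**Figure D1:**
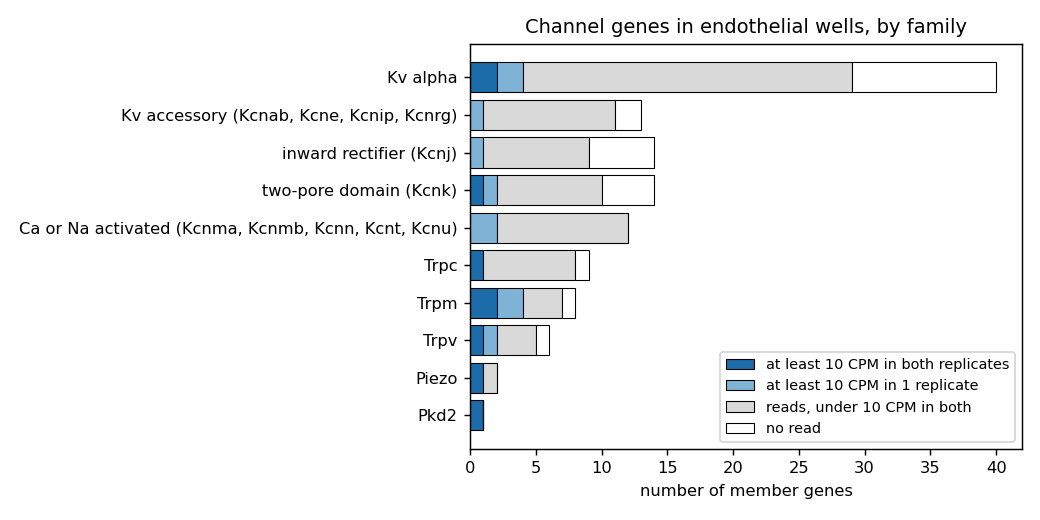
Bars give the number of member genes in each family (x axis), divided by their mean level in endothelial wells: at least 10 CPM in both replicates, in 1 replicate, in neither, or no read. The 40 Kv alpha genes held 2 genes at 10 CPM in both replicates, and the inward rectifiers and the calcium- or sodium-activated channels held none.

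*Piezo1*, the gene of a channel that opens on membrane stretch and is known to sense blood flow, was the most abundant member in CPM. Its mean level was 113 CPM (plate A) and 94.5 CPM (plate B) in replicate 1 and 121 and 139 CPM in replicate 2, so that the plates of both replicates lay close together. It averaged 117 ± 19.0 CPM (SD, n = 2 replicates). Reads were present in 58.3% of the wells in replicate 1 (exact binomial 95% interval 52.8 to 63.6) and 34.4% in replicate 2 (29.6 to 39.6), or in 35.6% and 27.2% once each well was thinned to 20000 reads. Intervals of this kind cover counting error only. The gene overlaps *Ctu2* and *Gm20388*, and reads of overlapping genes may have been assigned to either.

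*Trpv4* encodes a calcium-permeable channel that responds to swelling, warmth and epoxyeicosatrienoic acids. It had 58.0 and 90.8 CPM on the plates of replicate 1 and 67.7 and 43.4 CPM on those of replicate 2, a mean of 65.4 ± 14.5 CPM. Divided by the length of its exons, its level was 18.6 CPM per kb in replicate 1 and 13.5 in replicate 2, and that of *Piezo1* was 10.4 and 13.1. Per length *Trpv4* was therefore highest of the 9 genes in both replicates, but in replicate 2 the difference from *Piezo1* was smaller than the spread of either gene between plates.

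*Trpm7*, which encodes a magnesium-permeable channel fused to a kinase, had 97.2 and 76.6 CPM on the plates of replicate 1 and 108 and 54.0 CPM on those of replicate 2. *Pkd2*, the gene of polycystin-2, had 92.1 and 72.6 CPM in replicate 1 but 50.7 and 24.0 CPM in replicate 2. The plates of the 2 replicates overlapped for *Trpm7* and not for *Pkd2*. *Trpc4ap*, which overlaps *Myh7b*, lay at 81.6 and 86.8 CPM in the 2 replicates. Per length these 3 genes lay between 3.63 and 9.91 CPM per kb, below *Piezo1* and *Trpv4*.

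The potassium channel genes and *Trpm4* were lower and found in fewer wells. *Kcnq1*, the gene of a slowly activating Kv channel, had 21.6 and 19.8 CPM in replicates 1 and 2, read in 41 and 14 wells. *Kcnk6*, a two-pore domain channel gene, had 12.2 and 11.3 CPM. *Kcnc2*, a Kv3 channel gene, had 11.1 and 13.3 CPM. *Trpm4*, which encodes a cation channel opened by intracellular calcium, had 17.8 and 13.8 CPM. A single well gave 24.2% of the *Trpm4* sum in replicate 1 and 37.3% in replicate 2, so that the levels of the rarer genes rest on few wells.

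**Figure D2:**
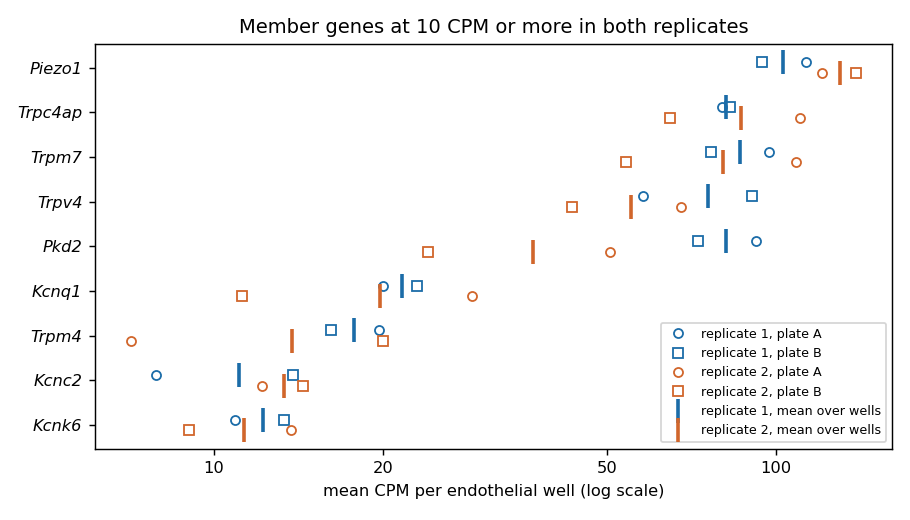
Mean CPM per endothelial well (x axis, log scale) of the 9 members with at least 10 CPM in both replicates, with open symbols for the 4 plates and vertical bars for the mean over the wells of each replicate. *Piezo1* lay between 94.5 and 139 CPM on every plate, and *Pkd2* was lower on both plates of replicate 2.

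Other channel genes known from endothelium were below this level or uneven. *Kcnj2*, the gene of the inward rectifier Kir2.1, had 4.76 and 6.53 CPM. *Kcnn4*, the gene of the intermediate-conductance calcium-activated channel, went from 6.01 CPM in replicate 1 to 22.3 CPM in replicate 2, and *Kcnn3*, of the small-conductance type, had 1.12 and 10.7 CPM. *Piezo2* had 4.78 and 5.63 CPM, *Trpc1* 1.91 and 2.995 CPM and *Trpv2* 10.3 and 8.45 CPM. *Kcnma1*, the pore of the large-conductance calcium-activated channel, had reads in 5 of the 338 wells of replicate 1. In replicate 2 it had none in 363 wells, a count that allows a share of about 0.826% (3 counts of the total, a rule less strict than the exact interval). *Kcnmb1*, its smooth muscle subunit gene, lay at 0.266 and 0.492 CPM and overlaps *Kcnip1*. *Kcna5*, a Kv1 channel gene chosen here after its values were seen, had 40.1 and 32.5 CPM on the plates of replicate 1 but 3.69 and 11.6 CPM on those of replicate 2. Without the cluster with other markers it passed 10 CPM in both replicates, so that 10 members did.

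Mural-mixed wells were compared with endothelial wells to see how channel genes differed in wells that also held mural genes. Both kinds of well were summed within each replicate, and the 4 sums were tested in edgeR (quasi-likelihood F test), with a term for the replicate. Among 61 members tested 2 rose, of which *Kcne4* is described here, and none fell. Of 18651 genes tested, 138 rose (0.74%) and 25 fell (0.134%). At an unadjusted p under 0.05, 3 members were higher and 2 lower, against 2.47% and 2.21% of all genes, and DESeq2 called 3 members and 1.36% of all genes. The median log2 difference was 0.18 for the members and -0.29 for all genes tested. In such wells fewer endothelial transcripts from a cell and a smaller part of the well's RNA from endothelial cells cannot be told apart. *Pecam1* averaged 3021 and 1916 CPM in endothelial wells and 2067 and 973 CPM in mural-mixed wells, and the 13 mural markers had median sums of 599 and 97.6 CPM against 7704 and 1252 CPM. Of the 12 mural markers tested 10 rose, although *Pdgfrb* had been used to choose the wells. The 8 fibroblast markers moved with them, with median sums of 90.8 and 22.7 CPM in endothelial wells against 1213 and 381 CPM in mural-mixed wells. Their mean sums were 443 and 730 CPM against 1766 and 920 CPM. Of these, 5 were higher and 1 passed the edgeR test, the collagen gene *Col3a1*, while *Pdgfra*, a defining gene of fibroblasts, had no read in mural-mixed wells of replicate 2. The 8 lymphatic markers had median sums of 4.81 and 57.2 CPM against 3.92 and 280 CPM, but in the summed counts all 8 were lower and none passed. The part of these mural, fibroblast and lymphatic genes in the levels of the members was not tested.

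*Kcne4* encodes an accessory subunit that reduces the current of several Kv channels. In endothelial wells it had 5.58 and 4.77 CPM on the plates of replicate 1 and 14.96 and 0.744 CPM on those of replicate 2, and in mural-mixed wells 213 and 225 CPM and 31.0 and 29.2 CPM. All mural-mixed values lay above all endothelial values, although replicate 2 was the lower of the mixed wells. The log2 difference was 4.17 ± 0.90 with an edgeR adjusted p of 7.14e-04, and it was 5.69 in replicate 1 and 2.65 in replicate 2. For log2 differences, here and below, ± is a standard error derived from the edgeR F statistic and not an SD over replicates. In replicate 2, 1 endothelial well gave 88.2% of the *Kcne4* sum. Without the cluster with other markers the log2 difference over both replicates was 6.92. In replicate 1, *Kcne4* was read in 165 of 338 endothelial wells, none of which gave more than 2.85% of the sum.

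*Kcne4* kept its call in 9 of 15 tested alternatives and lost it in the other 6, and the cause was not tested. The 9 include settings added afterwards, without the cluster with other markers or with mural wells low in *Pecam1* in place of mural-mixed wells. Without the replicate block the log2 difference was 4.34 with an edgeR adjusted p of 0.184, and with plates summed separately it was 5.37 with an adjusted p of 0.466. On plate A alone it was 3.13 (adjusted p 1), with the 3 vessel classes in place of all endothelial wells 7.12 (adjusted p 0.0699), and with no limit on *Pecam1* 4.97 (adjusted p 0.0833). With limma, which was run on the log2 of the mean CPM per well plus 1, it was 3.50 (adjusted p 0.0931). Across the 15 alternatives the log2 difference lay between 3.13 and 7.12 and the adjusted p between 2.57e-08 and 1.

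*Trpc6* and *Trpv2* were also higher in mural-mixed wells without passing the test. *Trpc6*, the gene of a channel gated by diacylglycerol, had 1.02, 3.86, 4.74 and 0.179 CPM on the 4 plates of endothelial wells and 45.2, 46.3, 18.4 and 5.59 CPM in mural-mixed wells, with a log2 difference of 3.01 ± 1.91 and an edgeR adjusted p of 1. *Trpv2*, whose product is a cation channel of several cell types, had 4.70, 15.1, 8.11 and 8.77 CPM against 45.4, 46.0, 36.5 and 39.8 CPM. Its log2 difference was 1.80 ± 1.59 (edgeR, adjusted p 1). For both genes the plates of the 2 kinds of well did not overlap, while in replicate 2 only 25 reads of each gene were counted in mixed wells.

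None of the 9 members of endothelial wells passed the test in mural-mixed wells, and their values lay on either side. *Piezo1* had 77.0 and 47.9 CPM on the plates of replicate 1 and 0 and 13.1 CPM on those of replicate 2, below every plate of endothelial wells. Its log2 difference was -1.81 ± 0.84 with an edgeR adjusted p of 0.906. *Trpv4* had 55.5 and 54.0 CPM in replicate 1, within the range of endothelial wells over all plates. In replicate 2 it had 0 and 6.50 CPM, where only 2 reads were counted. On every plate it was below the endothelial wells of that plate. Its log2 difference was -2.75 ± 1.29 (edgeR, adjusted p 0.927). *Trpm7* had mean levels of 86.1 and 80.3 CPM in endothelial wells of the 2 replicates and 83.7 and 72.8 CPM in mural-mixed wells. In the summed counts, scaled by TMM, it had 85.9 and 79.5 CPM against 78.8 and 171 CPM, so that the direction in replicate 2 depended on how wells were weighted. *Pkd2* had mean levels of 81.6 and 37.0 CPM against 88.5 and 31.8 CPM, and 78.8 and 37.8 CPM against 91.1 and 50.1 CPM in the sums.

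Wells with a mural gene and under 100 CPM of *Pecam1* were looked at as well, a choice made after the numbers of wells had been seen. There were 9 of them in replicate 1 and 41 in replicate 2, with median sums of the mural markers of 22255 and 16026 CPM. The fibroblast markers had median sums of 2966 and 1781 CPM there, and 4 of 8 rose in edgeR (*Col1a1*, *Col1a2*, *Col3a1* and *Dpt*). *Pdgfra* had no read in replicate 1, in which 7 of the 8 lymphatic markers had none either. *Kcne4* had 347 and 229 CPM there, *Trpc6* 78.9 and 98.4 CPM and *Trpv2* 319 and 107 CPM. All 3 genes were higher than in endothelial wells in both replicates. In replicate 1, however, 1 of the 9 wells gave 87.5% of the *Kcne4* level and 89.3% of that of *Trpc6*, and *Trpv2* had 0 CPM on plate A. In edgeR *Kcne4* (log2 difference 5.35, adjusted p 1.93e-06) and *Trpv2* (4.68, adjusted p 4.73e-04) passed among 51 members tested, with 1.44% of 17121 genes higher and 1.31% lower. *Piezo1* had 107 and 16.2 CPM and *Trpv4* 2.91 and 56.9 CPM in these wells, and in each case a single well gave over 90% of the higher value (90.6% and 97.2%).

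**Figure D3:**
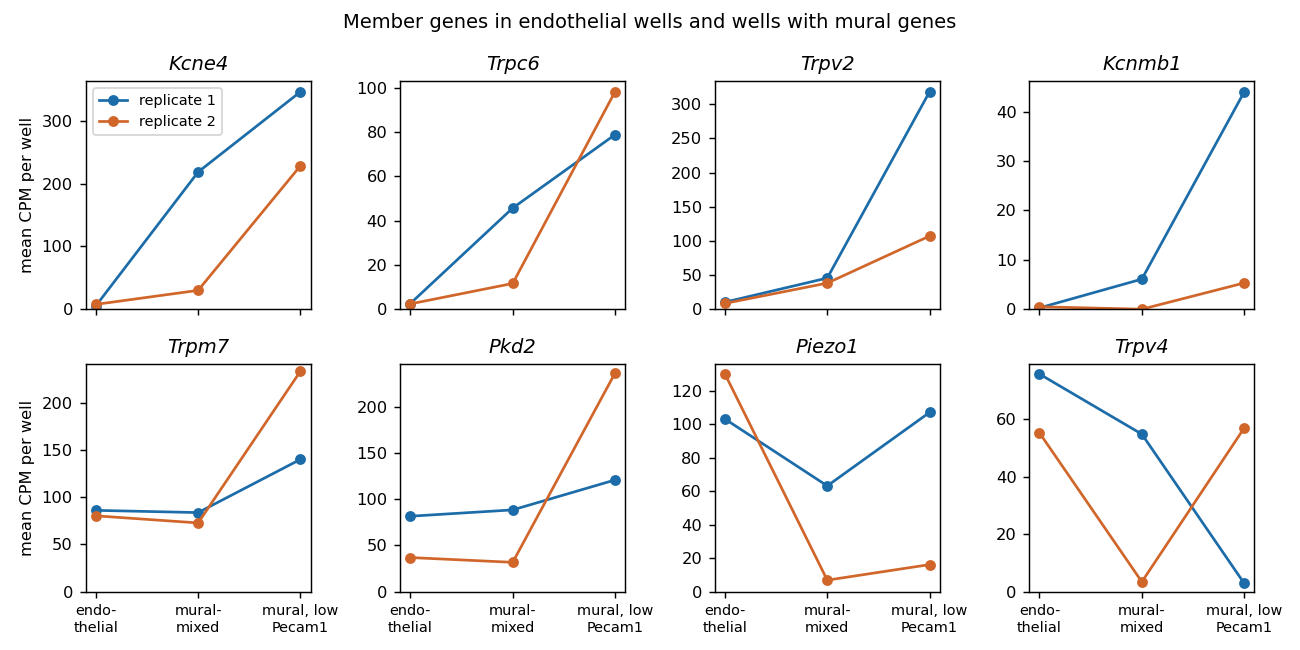
Mean CPM per well (y axis) of 8 members in endothelial wells, mural-mixed wells and wells with mural genes and low *Pecam1*, with a line for each replicate. *Kcne4*, *Trpc6* and *Trpv2* lay above their endothelial values in both other kinds of well, whereas *Piezo1* was lower in mural-mixed wells of both replicates.

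The wells were also ordered by the summed level of 13 mural markers, which include none of the members. Only wells with at least 100 CPM of *Pecam1* entered, and the highest 2 of the 5 ranges held 14 and 4 wells of replicate 2. In replicate 1, *Kcne4* had 3.96, 5.76 and 8.59 CPM in the 3 ranges below 3000 CPM of the markers and 239 and 173 CPM above. *Trpc6* stayed below 3 CPM and then had 42.2 and 56.0 CPM, and *Trpv2* had 3.18, 4.37 and 8.10 CPM and then 36.1 and 80.5 CPM. These 3 genes were below 10 CPM in every range under 3000 CPM of the markers. The median sum of the 8 fibroblast markers moved in the same way, with 71.7, 102 and 126 CPM and then 1060 and 1324 CPM, and its part in these values was not tested. *Piezo1* had 95.6, 109, 94.1, 69.3 and 59.6 CPM over the 5 ranges. In replicate 2 *Trpv2* had 25.7 CPM already between 300 and 1000 CPM of the markers, and the 4 wells of the highest range had 0 CPM of *Trpv2* and *Piezo1*, with too few wells to read an order from.

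**Figure D4:**
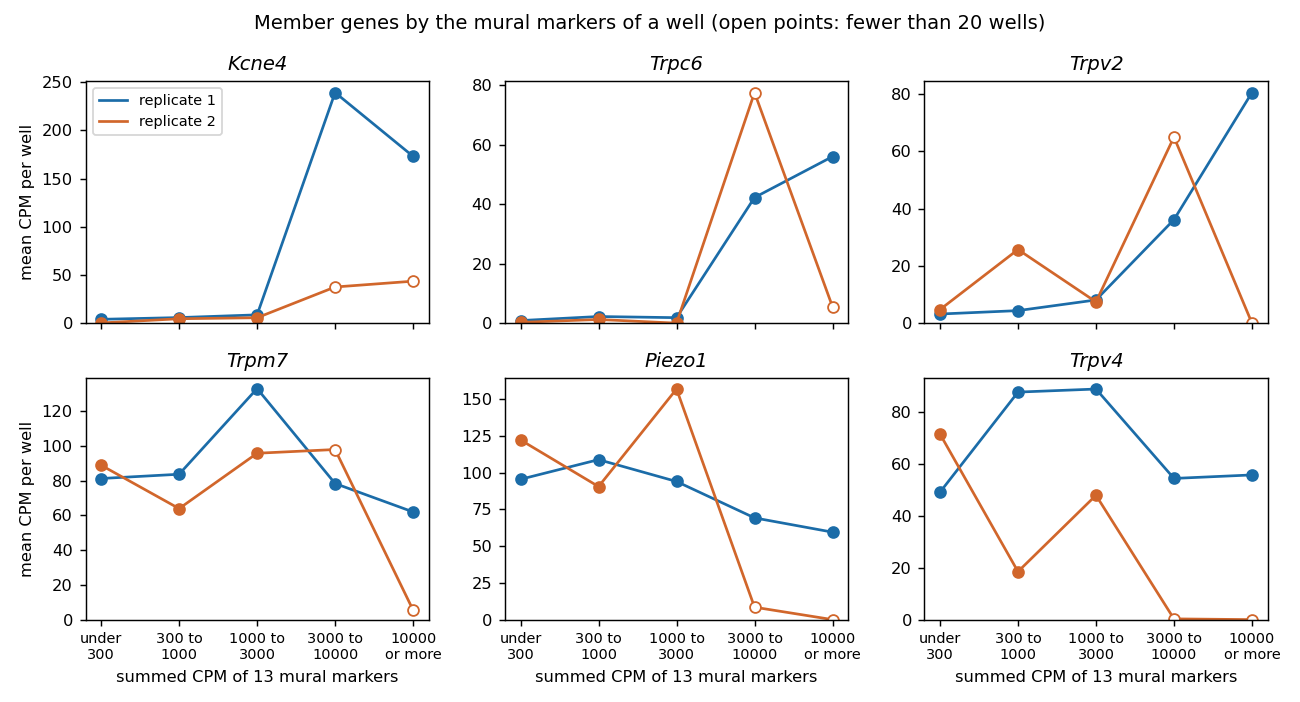
Mean CPM per well (y axis) of 6 members over 5 ranges of the summed CPM of 13 mural markers (x axis), with a line for each replicate and open points where a range held fewer than 20 wells. In replicate 1 *Kcne4*, *Trpc6* and *Trpv2* were high only in the 2 upper ranges, in which *Piezo1* took its 2 lowest values.

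Endothelial wells were divided into vessel classes to compare channel genes along the vessel tree. Clusters made without any member gene gave 48 artery-like wells (19 and 29 of the 2 replicates), 148 capillary-like wells (122 and 26) and 133 vein-like wells (86 and 47), whereas 372 wells remained unnamed. The artery-like cluster had 14 artery markers higher, among them *Gja4*, *Gja5* and *Sox17*, the capillary-like cluster 11 capillary markers and the vein-like cluster 11 vein markers. *Piezo1*, *Trpm7*, *Trpc4ap* and *Pkd2* had at least 10 CPM in both replicates in all 3 classes, both as the mean over wells and in the summed counts scaled by TMM. *Trpv4* did so in artery-like and vein-like wells, and *Kcnn4* and *Kcnk6* in artery-like wells. For some members the side of this limit depended on how wells were weighted. *Kcnq1* passed it in all 3 classes as a mean, but in replicate 2 its sums were 9.95 CPM in capillary-like and 8.11 CPM in vein-like wells, and 1 capillary-like well held all of its level. *Trpv2* had means of 13.5 and 12.6 CPM in capillary-like wells, and sums of 17.4 and 1.78 CPM that rest on 5 reads in replicate 2. *Trpv4* in capillary-like wells of replicate 2 had a mean of 8.25 CPM and a sum of 13.5 CPM.

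No member passed edgeR's test in any class comparison, of 32 members tested. Of 14387 genes tested against the mean of the other classes, 0.0139% rose and 0% fell in artery-like wells, 0% and 0% in capillary-like wells, and 0.0209% and 0.00695% in vein-like wells. At an unadjusted p under 0.05, 3 members were higher and 2 lower in artery-like, 3 and 1 in capillary-like, and 2 and 2 in vein-like wells. The shares of all genes at that p were 2.47% higher and 3.7% lower in artery-like, 2.52% and 1.56% in capillary-like, and 4.24% and 1.22% in vein-like wells. For artery-like against vein-like wells 0 members and 0% of genes passed in either direction, and 2 members were higher and 3 lower at an unadjusted p under 0.05, against 1.63% and 4.8% of all genes. Those in artery-like wells included *Trpv4*, *Kcnn3* and *Kcnn4* (higher) and *Kcnk5* (lower). DESeq2 called 5, 2, 2 and 4 members in the artery-like, capillary-like, vein-like and artery-to-vein comparisons, and limma called none. Of all genes DESeq2 called 4.98%, 1.86%, 1.85% and 4.02%. The calls of DESeq2 included *Kcne3*, *Kcnn3*, *Kcnn4* and *Trpv4* higher in artery-like wells, *Piezo2* higher and *Trpv4* lower in capillary-like wells, and *Kcne3* and *Kcnn3* lower in vein-like wells. Against vein-like wells alone, *Kcne3*, *Kcnn3* and *Kcnn4* were called higher in artery-like wells. The differences below are therefore values per replicate, and none of them is shown beyond the spread between sums.

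*Trpv4* was highest in artery-like wells of both replicates. Its mean level there was 234 and 285 CPM on the plates of replicate 1 and 308 and 94.999 CPM on those of replicate 2. In vein-like wells it was 134, 109, 83.0 and 24.0 CPM, and in capillary-like wells 8.46, 54.1, 14.97 and 0.407 CPM. Each plate gave the order artery-like, vein-like, capillary-like. The log2 difference of artery-like wells from the other classes was 2.55 ± 0.52 (edgeR, adjusted p 0.545) and that of capillary-like wells -2.98 ± 0.63 (adjusted p 0.983), with -2.84 in replicate 1 and -3.12 in replicate 2. DESeq2 gave adjusted p of 3.65e-03 and 2.28e-03, and the range over all 14 tested alternatives reached 0.999 and 1. At 20000 reads per well, *Trpv4* was read in 36.8% and 25.0% of artery-like, 32.6% and 17.8% of vein-like and 8.20% and 4.35% of capillary-like wells. With the limit of 10 CPM for the non-BEC genes, which leaves 18 wells of replicate 1, the difference of artery-like wells was -0.72. The cluster named artery-like under that limit was another set of wells, with 3 wells of replicate 1 and with 7 artery and 4 vein markers higher. The cluster with 13 artery markers higher had no well of replicate 1. It stayed unnamed by the naming rule, because its leading genes held the vein marker *Vcam1* and no artery marker.

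*Kcnn4* and *Kcnn3*, the calcium-activated channels of the same vasodilator response, were also highest in artery-like wells, on the strength of few wells. *Kcnn4* had 83.7 and 96.9 CPM in artery-like wells, 0.263 and 31.4 CPM in capillary-like wells and 1.75 and 14.6 CPM in vein-like wells of replicates 1 and 2. It was read in 4 of 19 and 5 of 29 artery-like wells, and 1 of them gave 38.5% and 58.0% of the sum. The log2 difference of artery-like wells was 4.89 ± 1.64, with an edgeR adjusted p of 0.722. *Kcnn3* had 9.67 and 46.5 CPM in artery-like wells, read in 2 wells of each replicate, and 0.716 and 0 CPM in capillary-like wells. It was read in 0 of 86 and 0 of 47 vein-like wells, which allows shares of up to 3.49% and 6.38% by the rule of 3 counts.

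*Kcnk6* had 28.3 and 50.9 CPM in artery-like wells, 5.32 and 0.259 CPM in capillary-like wells and 9.85 and 22.7 CPM in vein-like wells, with a log2 difference of artery-like wells of 2.95 ± 1.54 and an edgeR adjusted p of 0.722. A single well gave 96.1% of the artery-like level in replicate 1, where plate A had 1.09 CPM and plate B 38.0 CPM, and 52.0% in replicate 2. *Kcne3*, an accessory subunit gene chosen after its values were seen, was among the leading genes of the artery-like cluster. It had 0 CPM in the 19 artery-like wells of replicate 1 and 151 CPM in replicate 2, read in 3 of 29 wells, so the replicates did not show the same level.

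The order of classes for *Piezo1* depended on how wells were weighted. As a mean over wells it had 122 and 84.2 CPM in artery-like, 115.5 and 146 CPM in capillary-like and 66.1 and 109 CPM in vein-like wells. In the sums, scaled by TMM, capillary-like wells were highest in both replicates, with 123 and 238 CPM against 110.1 and 95.1 CPM in artery-like and 61.7 and 106 CPM in vein-like wells, and 1 well gave 53.5% of the capillary-like level in replicate 2. The log2 difference of capillary-like wells was 0.90 ± 0.53 (edgeR, adjusted p 0.983). *Piezo2*, the other stretch-activated channel, was highest in capillary-like wells, with 11.2 and 6.60 CPM against 1.14 and 0.254 CPM in artery-like and 0.104 and 0.203 CPM in vein-like wells. Its log2 difference was 5.64 ± 1.61 (edgeR, adjusted p 0.983), but 1 well gave 84.9% of the capillary-like sum in replicate 1 and 86.9% in replicate 2. *Pkd2* was highest in capillary-like wells of replicate 1, with 135 CPM, and lowest there in replicate 2, with 17.1 CPM. *Trpm7* had 125 and 55.3 CPM in capillary-like wells as a mean over wells, and 121 and 85.6 CPM in the sums, where the classes of replicate 2 lay between 82.5 and 89.5 CPM. *Kcna5*, again named after its values were seen, had 69.0 CPM in capillary-like wells of replicate 1, read in 35 of 122 wells, and 0.422 CPM in those of replicate 2.

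**Figure D5:**
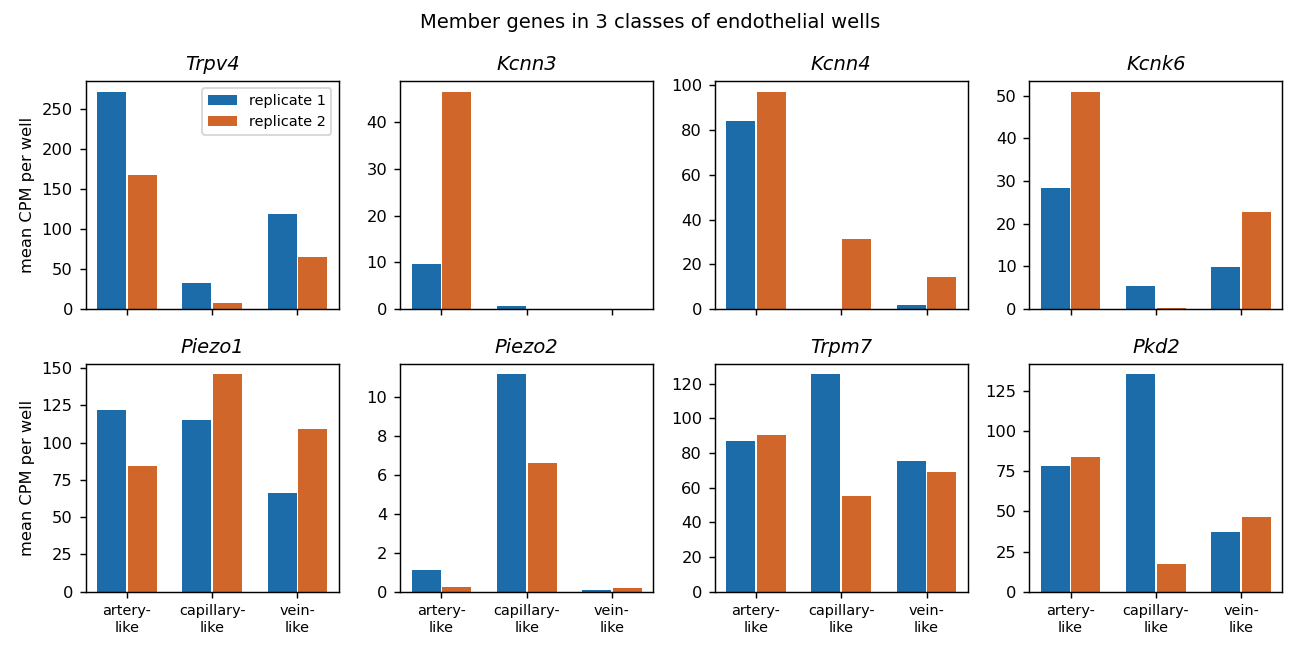
Bars give mean CPM per well (y axis) of 8 members in artery-like, capillary-like and vein-like endothelial wells, for replicates 1 and 2. *Trpv4*, *Kcnn3*, *Kcnn4* and *Kcnk6* were highest in artery-like wells of both replicates, where 1 well gave 95.3% and 95.5% of the *Kcnn3* level and 96.1% of that of *Kcnk6* in replicate 1. *Pkd2* was highest in capillary-like wells of replicate 1 and lowest there in replicate 2.

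Depth and mural markers differed between classes and replicates. Median reads per well were 120914 and 180870 in artery-like, 137518 and 104018 in capillary-like and 187494 and 252729 in vein-like wells. The median sums of the 13 mural markers were 447 and 33.1 CPM, 599 and 82.7 CPM, and 578 and 140 CPM, with 1 marker at 0 in each class and replicate. The median sums of the 8 fibroblast markers were 72.5 and 14.3 CPM, 103 and 11.6 CPM, and 56.3 and 6.82 CPM. Their part in the class values was not tested.

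A list of 42 partner genes, which encode subunits, calcium stores, pumps and regulators of these channels, was looked at as well. At least 10 CPM in both replicates of endothelial wells was reached by 27 of them, against 38.4% of protein-coding genes. In mural-mixed wells 3 of 37 tested rose and none fell, where 0.74% of all genes tested rose and 0.134% fell. The median log2 difference was 0.01, against -0.29 for all genes tested. *Abcc9*, the partner of *Kcnj8*, had sums of 29.8 and 14.3 CPM (scaled by TMM) in endothelial wells and 659 and 1013 CPM in mural-mixed wells, a log2 difference of 5.31 ± 0.47 (edgeR, adjusted p 3.71e-26). *Ano1*, a calcium-activated chloride channel gene, rose by 4.59 ± 0.70 (edgeR, adjusted p 2.42e-08) and *Cacna1c*, the pore of an L-type calcium channel, by 5.19 ± 1.39 (edgeR, adjusted p 0.0238). Of 15 tested alternatives, *Abcc9* was called in 12, *Ano1* in 10 and *Cacna1c* in 7, and their adjusted p reached 0.0833, 0.804 and 1. Since *Kcnj8* chose the mural wells, the rise of its partner gene is not independent of that choice. In the class comparisons none of 33 partner genes passed edgeR's test, with the shares of all genes given above. DESeq2 called 1 higher in artery-like wells against the other classes and 1 against vein-like wells, with its shares of all genes also given above. Of the 33, *Atp2a3*, a calcium pump of the endoplasmic reticulum, had the lowest p in artery-like wells (log2 difference 2.12 ± 0.39, edgeR adjusted p 0.414). Its summed levels there were 260.2 and 583 CPM, against 78.1 and 188 CPM in capillary-like and 40.2 and 108 CPM in vein-like wells.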

How the data were processed

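Ear dermal BECs of 4 plates, 2 per replicate, were analysed. The authors aligned single 50-bp reads to mm10 with TopHat2 2.1.1. Duplicates were taken out by SAMtools 0.1.18, Subread 1.4.6-p5 did the counting, and the authors deposited raw read counts for every gene in every well. Strand use and the gene annotation are not given in the sources used here. Removing duplicates without molecular identifiers limits the counts of abundant short genes. Of the 46517 identifiers, 46005 were matched to GENCODE vM21. The 92 spike-in sequences were left out of totals.

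Wells had at least 600 counts and 500 to 8000 genes, with the gene limits given above. The study gives no level for its non-BEC genes, for which 100 CPM was used, with 10 and 300 CPM as alternatives. Doublets were not called otherwise. A replicate's level is the mean CPM over its wells. Clusters came from scran 1.30.0 size factors, 1000 variable genes scaled within each replicate, 15 principal components, 15 neighbours and leidenalg 0.10.2 at a resolution of 0.6, chosen as the lowest at which both replicates held wells of all 3 classes. The clustering left out members, partner genes, genes induced by dissociation, and mitochondrial and ribosomal-protein genes. A cluster of at least 10 wells was named from at least 3 higher markers of a list, more than of any other list. The higher markers had to be at least as many as the list's remaining markers. No name was given when the leading genes held more markers of another list than of this list. The same held when wells far shallower than those of the replicate went with no leading gene of the list. The condition on the share of the list was set after cluster markers had been seen.

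Counts were summed per replicate and kind of well. A gene was tested when 2 or more sums held 10 counts, in edgeR 4.0.16 (TMM, quasi-likelihood, replicate as a block), with 1 residual degree of freedom for the 4 sums and 2 for the 6 sums of classes, and p-values were adjusted over every tested gene (Benjamini-Hochberg, threshold 0.05). The block follows the sorting, since both kinds of well share the plates of a replicate. Deviations of endothelial and mural-mixed sums correlated at 0.136, those of the classes at 0.0845 to 0.0999. The fits were tested on simulated counts with known changes. At the spread estimated from these data most of these changes were not recovered, so a gene that did not pass may still differ. Alternatives used DESeq2 1.42.0 and limma 3.58.1 (log2 of mean CPM + 1), R 4.3.3 and Python 3.11.15.

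Members and lists were chosen with earlier results of these data known. Named are members at 10 CPM in both replicates in endothelial or in mural-mixed wells, members past the threshold, and known endothelial and smooth muscle channels, and others are said to be chosen afterwards. Results of some members are not reported here.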

Additional observations from a re-analysis of the deposited data

Results flagged for a closer look

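Levels of named members over the 4 plates were searched for a plate that stands apart, meaning a gap to its nearest neighbour, relative to the whole range, above Dixon's critical value for 4 samples. Of 36 sets of 4 plates, 4 contained one. The limit flags about 5% of sets of 4 independent normal values. Plates nested in replicates and levels near 0 CPM are not such values, so no excess can be read from this count. *Kcnma1* in endothelial wells had 1.38 CPM on plate B of replicate 1 and at most 0.0567 CPM on the others. *Trpc1* in endothelial wells had 4.23 CPM on plate A of replicate 2, against 1.79 to 2.05 CPM. In mural-mixed wells *Kcnn3* had 2.44 CPM on plate B of replicate 1, against 0 to 0.245 CPM. In the same wells *Kcnn4* had 22.8 CPM on plate B of replicate 2, against 5.09 to 6.57 CPM.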

How the results depend on the processing

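Of the 119 members, 9 had at least 10 CPM in both replicates of endothelial wells. The number was 7 to 10 under 8 alternatives for wells, plates and scaling, and 16 or 12 members reached 10 CPM in replicate 2 or replicate 1 alone. *Piezo1*, *Trpm7*, *Trpc4ap*, *Trpv4* and *Kcnq1* were among them under all of these.

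In mural-mixed wells 2 members were called. None was called without the replicate block, with limma, with plates summed separately, with the 3 vessel classes in place of all endothelial wells (8 sums) or with no limit on *Pecam1*, 1 with plate A alone, 1 with plate B alone and 3 with DESeq2. Of all genes 163 were called with the replicate block and 0 without it, 253 by DESeq2, 71 by limma, 34 and 91 with plate A or B alone, 32 with plates summed separately, 26 with 8 sums, 0 with no limit on *Pecam1* and 472 with wells low in *Pecam1*. Leaving out replicate 1 or 2 changed the log2 difference of *Kcne4* to 2.65 or 5.69, as values with no test.

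In the class comparisons no member was called under any alternative but DESeq2, which called 5 for artery-like, 2 for capillary-like, 2 for vein-like and 4 for artery-like against vein-like wells. Calls among all genes ranged from 0 to 717, 0 to 268, 1 to 266 and 0 to 579. Signs turned with the limit of 10 CPM, whose artery-like cluster is another set of wells (7 artery and 4 vein markers higher, 3 wells of replicate 1) and under which the log2 difference was -0.72 for *Trpv4* in artery-like wells and -3.76 against vein-like wells, -0.41 for *Piezo1* in capillary-like wells, and -2.17 for *Kcnc2* and 1.74 for *Kcnn3* in vein-like wells. With plate A alone *Piezo1* in capillary-like wells had -0.62. The cause was not tested. The mural-mixed values of replicate 2 come from few and shallow wells, where *Trpc6* and *Trpv2* rest on 25 reads each and *Trpv4* on 2. That limit of 10 CPM left 18 endothelial wells in replicate 1.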
